A study of Oryza sativa with 4 samples.

Results

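Brassinosteroids are steroid hormones that drive cell elongation, leaf bending and plant height in rice. They are made from plant sterols by a chain of cytochrome P450 enzymes and are sensed at the cell surface by the receptor kinase BRI1 with its co-receptor BAK1. The signal then releases the transcription factor BZR1 from inhibition by GSK3-type kinases, and BZR1 in turn lowers the transcripts of several synthesis enzymes as feedback. The 9 genes described here, chosen by name and locus identifier from 91960 features in the count table, cover synthesis and signalling alike. The synthesis genes are D2, D11, DWARF4 and BRD1, and the signalling genes are BRI1, BAK1, BZR1, DLT and BU1. All 9 had enough reads to be tested.

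RNA was sequenced from rice seedlings (Oryza sativa, japonica) aged 7 days under a day of 14 h light and a night of 10 h. The wild type was the line SN9816, with 2 libraries described as biological replicates. The mutant line was bta1-1, also with 2 libraries, both of which carry the genotype label MuZ1 mutant. The locus BTA1 is known to be LAZY1, which promotes the gravity response of shoots and keeps tillers upright. The sources used here do not give the line from which bta1-1 was derived, so the effect of the mutation and other differences between the lines cannot be told apart. Totals ranged from 15093108 to 20334851 counted reads per library. LAZY1 (OS11G0490600) was read 767 and 461 times in the wild type and 70 and 89 times in bta1-1, so the labelled mutant libraries held less of it. Leaf markers (Rubisco small subunits and Rubisco activase) and root markers (5 of 6, the exception being LSI2 with at most 1 read) were read in all libraries. The root markers were read unevenly, RCc3 only 9 to 35 times in a library and NAS1 4302 to 11712 times. No library held more than 5 reads of the shoot meristem gene OSH1 or OSH15.

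One of the 9 genes passed the test in bta1-1 against wild type. DLT, a GRAS-family protein that promotes brassinosteroid responses and without which rice is dwarfed with few tillers, rose 5.96-fold. BU1, a helix-loop-helix protein induced by brassinosteroid that promotes leaf bending, had a 2.58-fold higher level and missed the threshold (adjusted p = 0.0649). Of the 6 receptor, co-receptor and synthesis genes 0 were called by edgeR, 0 had an unadjusted p under 0.05 and 0 were called by DESeq2. In edgeR's quasi-likelihood test, adjusted by Benjamini-Hochberg over 24396 features, which gave every adjusted p below unless another test is named, 2.77% of features were called higher and 2.64% lower at an adjusted p under 0.05. An unadjusted p under 0.05 was reached by 17.8% of all features, and DESeq2 called 7.87% in either direction. The median log2 fold change of the 9 genes was 0.22, beside -0.01 over all features tested.

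**Figure D1:**
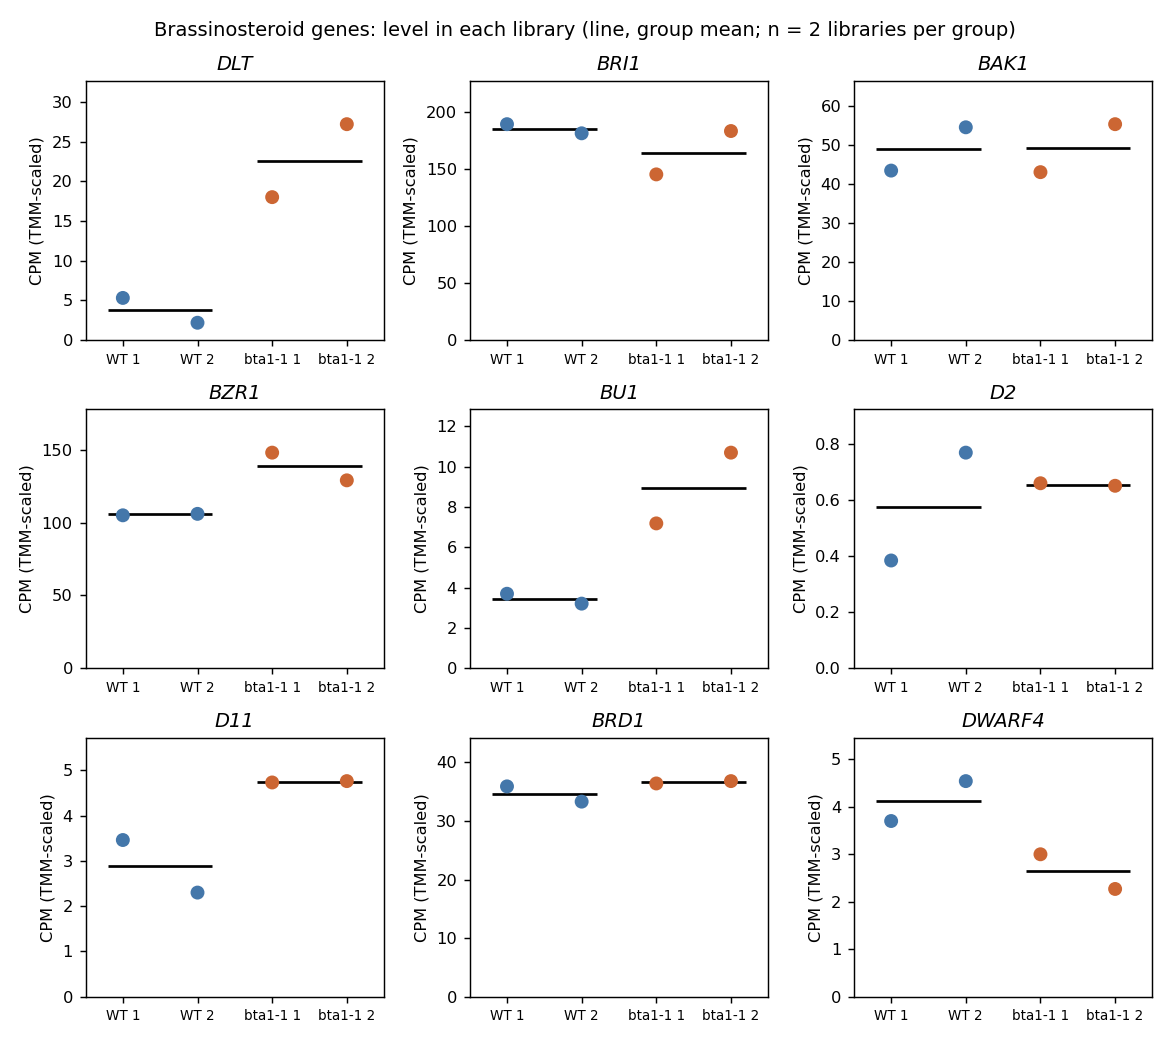
Each panel plots 1 gene, with the level in counts scaled to library size (CPM, TMM-scaled) on an axis that starts at 0 and the 4 libraries side by side (WT, wild type). Points are libraries and lines are group means (n = 2). DLT stands at 2.16 and 5.29 CPM in wild type and at 18 and 27.2 CPM in bta1-1, while the points of BRI1, BAK1 and D2 overlap between the groups.

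Among the signalling genes, DLT (OS06G0127800, chromosome 6) was read 110 and 31 times in wild type libraries 1 and 2, and 300 and 503 times in bta1-1 libraries 1 and 2. Scaled to library size, this was 5.29 and 2.16 CPM against 18 and 27.2 CPM, a mean of 3.73 ± 2.21 in wild type and 22.6 ± 6.54 in bta1-1 (SD, n = 2 per group). Both mutant libraries lay above both wild type libraries, the lower mutant level being 3.40 times the higher wild type level. The wild type libraries differed from each other by 2.44 times and the mutant libraries by 1.51 times. The log2 fold change was 2.57 (SE 0.43, 95% interval 1.59 to 3.56, adjusted p = 0.0136), which placed DLT 468th by p among 24396 features. With the groups so far apart, the sign could not turn when any of the 4 libraries was left out. The size of the log2 fold change in those fits was 2.10 to 3.37. Each such fit left 1 library in a line, so it took the spread from the other line alone. On log2(FPKM + 1) over all features with any value above 0, the same gene had adjusted p = 0.162 by limma.

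BU1 (OS06G0226500, chromosome 6) was read 77 and 46 times in the wild type and 120 and 197 times in bta1-1. Its level was 3.70 and 3.21 CPM in wild type libraries 1 and 2 against 7.19 and 10.7 CPM in bta1-1 libraries 1 and 2. The groups did not overlap, and the lower mutant level was 1.94 times the higher wild type level. The log2 fold change of 1.37 (SE 0.35, 95% interval 0.56 to 2.17) had adjusted p = 0.0649. BU1 sat at the edge of the threshold: DESeq2, by which 4.21% of features were called higher, gave adjusted p = 0.0255, and limma on log2(FPKM + 0.1) gave adjusted p = 0.0477. With the replicate number as a block, edgeR gave adjusted p = 0.182. Without bta1-1 library 1 the log2 fold change was 1.62, and without bta1-1 library 2 it was 1.08.

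BRI1 (OS01G0718300, chromosome 1), the receptor kinase that binds the hormone, had 189 and 181 CPM in wild type and 145 and 183 CPM in bta1-1. The groups overlapped, and the log2 fold change was -0.17 (95% interval -0.77 to 0.42, adjusted p = 0.825). BAK1 (OS08G0174700, chromosome 8), the co-receptor kinase also known as SERK1, had 43.4 and 54.5 CPM in wild type against 43 and 55.3 CPM in bta1-1. Its log2 fold change was 0.01 (95% interval -0.55 to 0.57, adjusted p = 0.995), and the spread between libraries of one line was larger than the difference between the lines.

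BZR1 (OS07G0580500, chromosome 7), the transcription factor at the end of the cascade, had 105 and 106 CPM in wild type and 148 and 129 CPM in bta1-1. Both mutant libraries were above both wild type libraries, with a log2 fold change of 0.39 (95% interval -0.15 to 0.94, adjusted p = 0.475). For BRI1, BAK1, BZR1 and the synthesis gene BRD1, the 95% interval of the change lay within a 2-fold change in either direction. Those of the other 5 genes did not, so for the uncalled ones among them a change of 2-fold or more was not excluded at this depth and replication.

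Among the synthesis genes, D11 and DWARF4 encode P450 enzymes (CYP724B1 and CYP90B2) that in rice hydroxylate the sterol side chain in overlapping roles. D11 (OS04G0469800, chromosome 4) had 3.46 and 2.30 CPM in wild type and 4.73 and 4.76 CPM in bta1-1. DWARF4 (OS03G0227700, chromosome 3) had 3.70 and 4.54 CPM in wild type and 3 and 2.27 CPM in bta1-1. Neither gene overlapped between the lines, and they lay in opposite directions. Neither was called: D11 had a log2 fold change of 0.71 (95% interval -0.17 to 1.59, adjusted p = 0.406), and DWARF4 had -0.64 (95% interval -1.53 to 0.25, adjusted p = 0.474).

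BRD1 (OS03G0602300, chromosome 3), the CYP85A1 oxidase of the last steps toward castasterone, was the synthesis gene with the most reads among the 4, 477 to 747 per library. It stood at 35.9 and 33.3 CPM in wild type and 36.4 and 36.8 CPM in bta1-1. The log2 fold change was 0.08 (95% interval -0.40 to 0.57, adjusted p = 0.905). D2 (OS01G0197100, chromosome 1), the P450 CYP90D2, was read only 8 and 11 times in the wild type and 11 and 12 times in bta1-1. At so few reads its log2 fold change of 0.22 had a 95% interval from -1.15 to 1.60, and its sign turned to -0.23 without wild type library 1.

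In all, 5 of the 9 genes lay higher in both mutant libraries than in both wild type libraries (DLT, BZR1, BU1, D11 and BRD1), and 1 lay lower in both (DWARF4). Over all features tested, 23.7% lay higher without overlap and 23.2% lower, together 46.9%, so with 2 libraries a line this arrangement is common.

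Levels can be compared between genes only per gene length, as the deposited FPKM (fragments scaled to gene length and library size). In wild type the order by mean FPKM was BZR1 (86.3 ± 4.55, SD, n = 2), BRI1 (63.5 ± 5.15), BAK1 (18 ± 1.93) and BRD1 (18 ± 1.91), then BU1 (4.28 ± 0.655), DWARF4 (2.10 ± 0.191), D11 (1.33 ± 0.445), DLT (1.21 ± 0.769) and D2 (0.378 ± 0.160). Neighbours in this order did not overlap, except BAK1 with BRD1 and D11 with DLT. In bta1-1 DLT moved from rank 8 to rank 6, at 7.5 ± 2.67 FPKM, above D11 at 2.24 ± 0.168 and DWARF4 at 1.37 ± 0.171. BU1 stayed in rank 5 at 11.4 ± 3.92 FPKM, and its libraries overlapped those of DLT there. BZR1 and BRI1 remained the most abundant, at 116 ± 2.59 and 58.1 ± 13.6 FPKM.

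Close relatives of several of the 9 genes were set beside them per length, a choice of families made after the values had been seen and described with no test. D11 and DWARF4 together had 3.61 and 3.25 FPKM in wild type libraries 1 and 2 and 3.61 FPKM in each bta1-1 library. The share of D11 in that sum was 45.6% and 31.3% in wild type and 58.6% and 65.3% in bta1-1, so the sum was alike in 3 libraries while D11 was the minor transcript in both wild type libraries and the major one in both mutant libraries. Neither D11 nor DWARF4 was called, so a change in these shares was not shown.

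The P450 pair D2 and CYP90D3 differed in another way. CYP90D3 made up 96.7% and 88.3% of their summed FPKM in wild type and 78.5% and 76.4% in bta1-1. The sum was 8.05 and 4.20 FPKM in wild type and 1.99 and 1.98 FPKM in bta1-1. D2 itself stayed below 0.5 FPKM in each library.

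BRI1 supplied 97.0% to 97.8% of the FPKM of the 3 receptor genes BRI1, BRL1 and BRL3 in every library. BAK1 supplied 22% and 29.9% of its sum with SERK2 in wild type and 20% and 29% in bta1-1, which overlapped. BZR1 supplied 54.6% and 64.4% of the FPKM of BZR1 to BZR4 in wild type and 68.6% and 57.9% in bta1-1, so the groups overlapped.

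**Figure D2:**
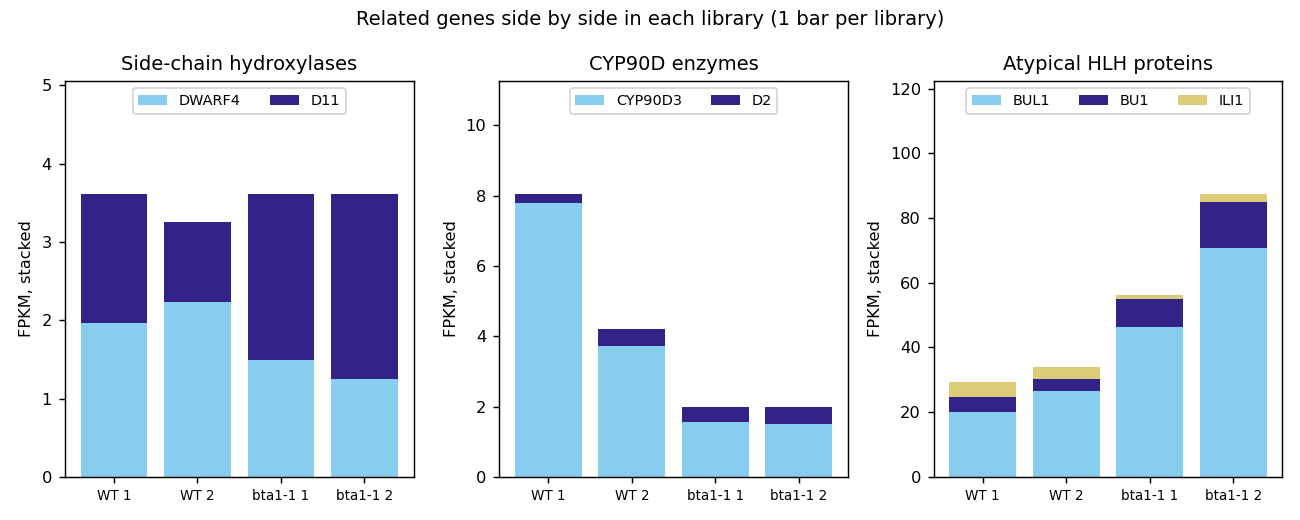
Stacked bars give the deposited FPKM of related genes, with 1 bar for each library and an axis that starts at 0. The D11 part is larger in both bta1-1 libraries within a near-constant sum (3.25 to 3.61 FPKM), though neither D11 nor DWARF4 was called. The CYP90D3 part shrinks from 7.78 and 3.71 FPKM to 1.56 and 1.51 FPKM, and the BUL1 part grows from 20 and 26.5 FPKM to 46.4 and 70.7 FPKM.

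Beyond the 9 genes, a list of 36 other brassinosteroid genes was read, of which 31 were tested. In bta1-1, 2 rose, 1 fell and 28 were not called, beside 2.77% and 2.64% of all features. The list's median log2 fold change was 0.11. The 5 untested genes reached 11 reads at most in a library and included RAVL1, an activator of BRI1 and synthesis genes, and OFP8, a target of the kinase GSK2.

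Of 5 tested synthesis genes, 1 rose and 1 fell. BRD2, the reductase homologous to Arabidopsis DWF1, had 3.75 and 4.19 CPM in wild type and 8.75 and 17.2 CPM in bta1-1. It rose 3.28-fold (log2 1.71, 95% interval 0.83 to 2.60, adjusted p = 0.0407). The call was lost without wild type library 1 (adjusted p = 0.0993), wild type library 2 (0.0793) or bta1-1 library 2 (0.22).

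CYP90D3, the close relative of D2, was read 181 and 64 times in the wild type and 31 and 30 times in bta1-1, or 8.70 and 4.47 CPM against 1.86 and 1.62 CPM. It fell 3.79-fold (log2 -1.92, 95% interval -2.94 to -0.91, adjusted p = 0.0435). Leaving out wild type library 1 gave adjusted p = 0.224, and leaving out bta1-1 library 2 gave 0.094. The other 3, DET2 and the near-identical pair CYP90A3 and CYP90A4, between which reads may have been split, had log2 fold changes of -0.40, 0.05 and 0.11 and were not called.

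Of 5 tested helix-loop-helix genes related to BU1 or its antagonists, 1 rose. BUL1, which like BU1 promotes leaf bending, had 14.2 and 20.3 CPM in wild type and 35.1 and 48.3 CPM in bta1-1, a 2.42-fold rise (log2 1.28, 95% interval 0.65 to 1.91, adjusted p = 0.0338). The adjusted p rose to 0.126 when wild type library 1 was left out and to 0.0569 when bta1-1 library 2 was. ILI1, named here after its values were seen, is an HLH protein that also promotes leaf bending and stood at 3.46 and 2.93 CPM in wild type against 0.839 and 1.84 CPM in bta1-1 (log2 fold change -1.25, adjusted p = 0.22). IBH1, the bHLH repressor that ILI1 binds, had a log2 fold change of -0.04. BC1 lay higher in both mutant libraries than in both wild type libraries but was not called (log2 fold change 0.75, adjusted p = 0.183). APG had a log2 fold change of -0.05 (adjusted p = 0.963).

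Of the 21 tested genes in the remaining roles, 0 were called by edgeR, 6 had an unadjusted p under 0.05 (17.8% of all features did) and 0 were called by DESeq2. The 3 tested CYP734A enzymes, which inactivate brassinosteroids, each lay higher in both mutant libraries without passing the test. Over all features tested, 23.7% lay higher in this way. CYP734A6 had the smallest p of the 3 (log2 fold change 0.95, adjusted p = 0.119). Among 6 kinases and phosphatases the kinase GSK3 had 0.77 (adjusted p = 0.163). Among 6 transcription factors SMOS1, a partner of DLT, had 0.70 (adjusted p = 0.211), with 35.7 and 43.8 CPM in wild type and 51.7 and 77.1 CPM in bta1-1. Of 3 receptor-type kinases BRL1 had 0.59 (adjusted p = 0.657), and of 3 other signalling genes the ubiquitin ligase TUD1 had 0.66 (adjusted p = 0.204).

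**Figure D3:**
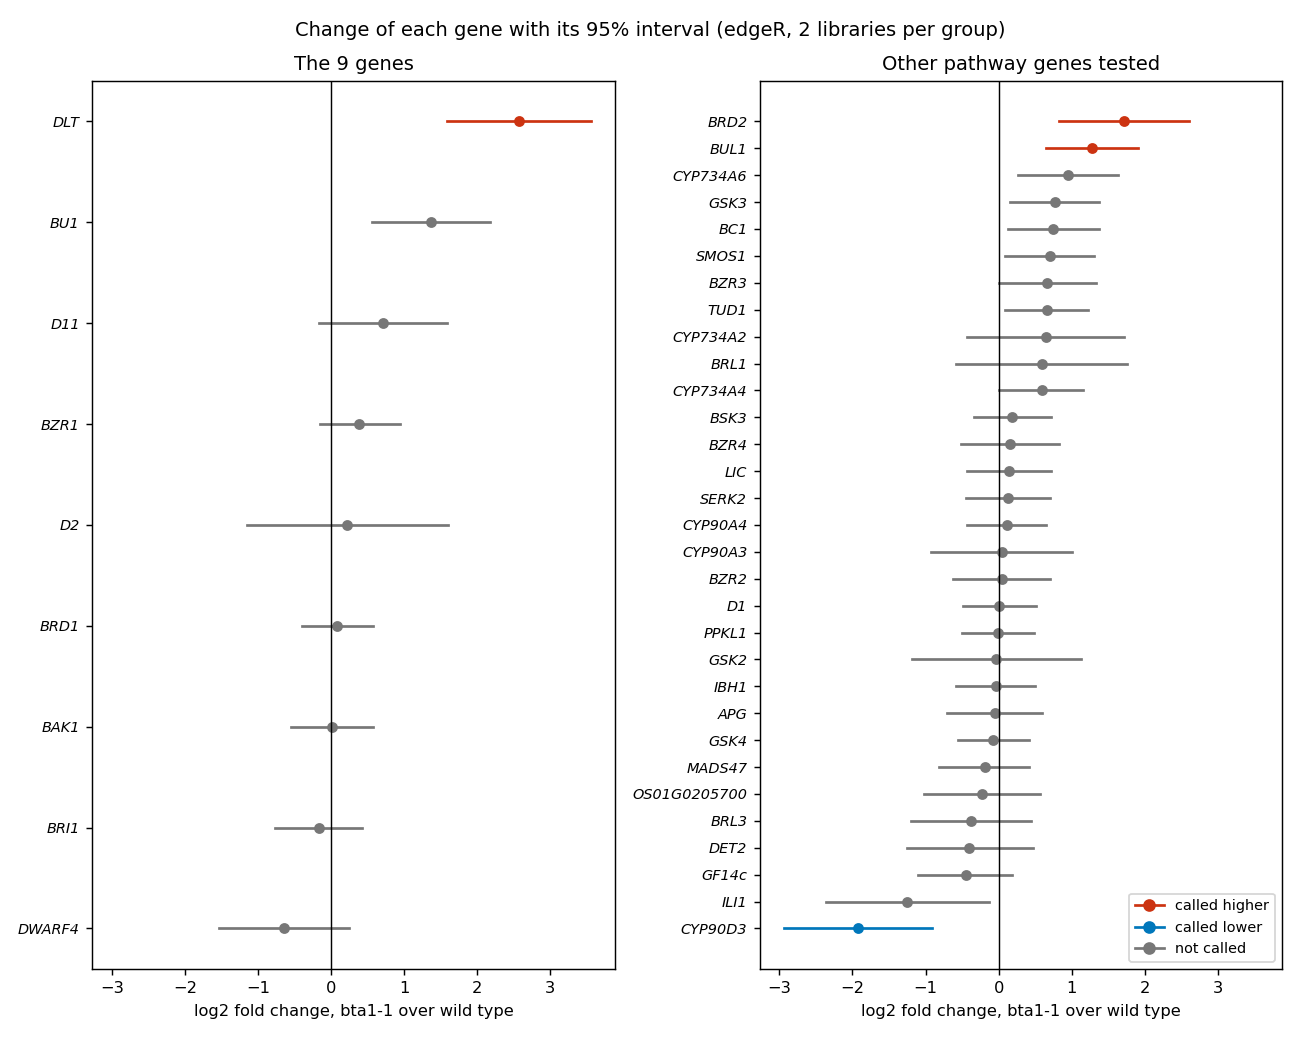
Points are log2 fold changes of bta1-1 over wild type from edgeR, with bars for the 95% interval of each gene, for the 9 genes on the left and the 31 other pathway genes tested on the right. DLT, BRD2 and BUL1 are called higher and CYP90D3 lower, and 1 kinase locus appears under its identifier because its listed name was contradicted.

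The genes whose pattern over the 4 libraries was most like that of DLT were sought among all tested features, by the root mean square difference of centred log2 CPM. The nearest was OS04G0504200, at a difference of 0.0428 (1.83 and 0.698 CPM in wild type, 6.59 and 10.4 CPM in bta1-1), followed by OS03G0587200 at 0.0774. The sources used here pair neither with a name. Within the brassinosteroid lists the nearest was BRD2 at 0.737, in place 726 among all features, then BU1 at 0.769 in place 818. The lists hold 9 and 31 tested genes among 24396 features, so most near places fall outside them by list size alone. The place to be expected for so short a list was not worked out, so no conclusion is drawn from these places.

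The order of the libraries in DLT, with wild type 2 lowest and bta1-1 2 highest, was also that of 10 genes of DNA replication and mitosis (6 MCM helicase subunits, PCNA, 2 B-type cyclins and CDKB2-1), a list taken up after its values were known. Their summed level was 56.6 and 25.3 CPM in wild type libraries 1 and 2 and 129 and 277 CPM in bta1-1 libraries 1 and 2. Of the 10, 7 were called higher, beside 2.77% of all features tested. BU1 had the same order of libraries, and the share of all features with this order was not counted. The 5 leaf markers summed to 7043 and 11785 CPM in wild type and to 9736 and 3411 CPM in bta1-1, lowest in the library where DLT, BU1, BUL1 and BRD2 were highest. The 6 root markers summed to 1022 and 688 CPM in wild type and 642 and 846 CPM in bta1-1, overlapping between the lines. NAS1 (300 to 563 CPM) and NAS2 (286 to 423 CPM) made up most of that sum, with YSL15 next at 17.1 to 26 CPM. The sum therefore says little about the other root markers. Of the 10 leaf and root markers tested 0 were called by edgeR, 0 had an unadjusted p under 0.05 and 0 were called by DESeq2. The part of these tissue and cell division differences in the changes of DLT, BU1, BUL1 and BRD2 was not tested. In RNA from seedlings, a change in the number of cells of a type and a change of transcript per cell cannot be told apart.

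**Figure D4:**
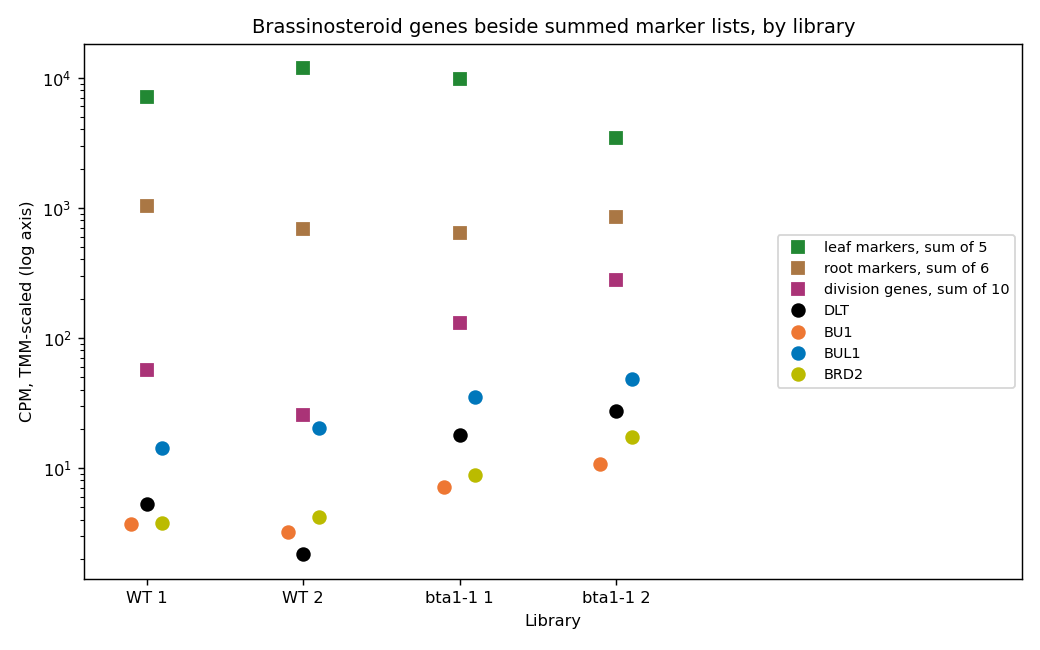
The level in each library is plotted as CPM on a log axis, with circles for single brassinosteroid genes and squares for summed marker lists (WT, wild type). DLT and the sum of 10 division genes share the order of the 4 libraries, from 2.16 to 27.2 CPM and from 25.3 to 277 CPM, and the leaf marker sum is lowest in bta1-1 library 2 at 3411 CPM.

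Neighbours on the chromosome were read because the lines may differ in other places than LAZY1. Of 20 tested loci around DLT, 10 on each side by locus number, 0 were called by edgeR, 4 had an unadjusted p under 0.05 and 2 were called by DESeq2, beside 17.8% and 7.87% of all features. Their median log2 fold change was -0.08. The next locus, OS06G0127900, was read 92 and 25 times in the wild type and 130 and 253 times in bta1-1 (log2 fold change 1.78, adjusted p = 0.0779), in the same order of libraries as DLT. Whether reads were counted by strand is not stated, so reads of genes that overlap could not be told apart. Whether DLT and OS06G0127900 overlap was not examined.

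Beside BU1, the preceding tested locus OS06G0226000 was read 953 and 635 times in the wild type and 4 times in each bta1-1 library (log2 fold change -7.59, adjusted p = 2.61e-05). It was the 1 called locus among the 20 around BU1. Around BRI1, 4 of 20 loci were called, 2 higher and 2 lower, and the next locus OS01G0718500 fell from 45 and 28 reads to 0 and 3 reads. Around D11, 3 of 20 were called, each higher. Of the 100 places around BAK1, BZR1, D2, BRD1 and DWARF4, 0 were called by edgeR, 9 had an unadjusted p under 0.05 and 3 were called by DESeq2, beside the same shares of all features. Over all 180 neighbouring places 4.44% were called, beside 5.41% of all features tested.

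**Figure D5:**
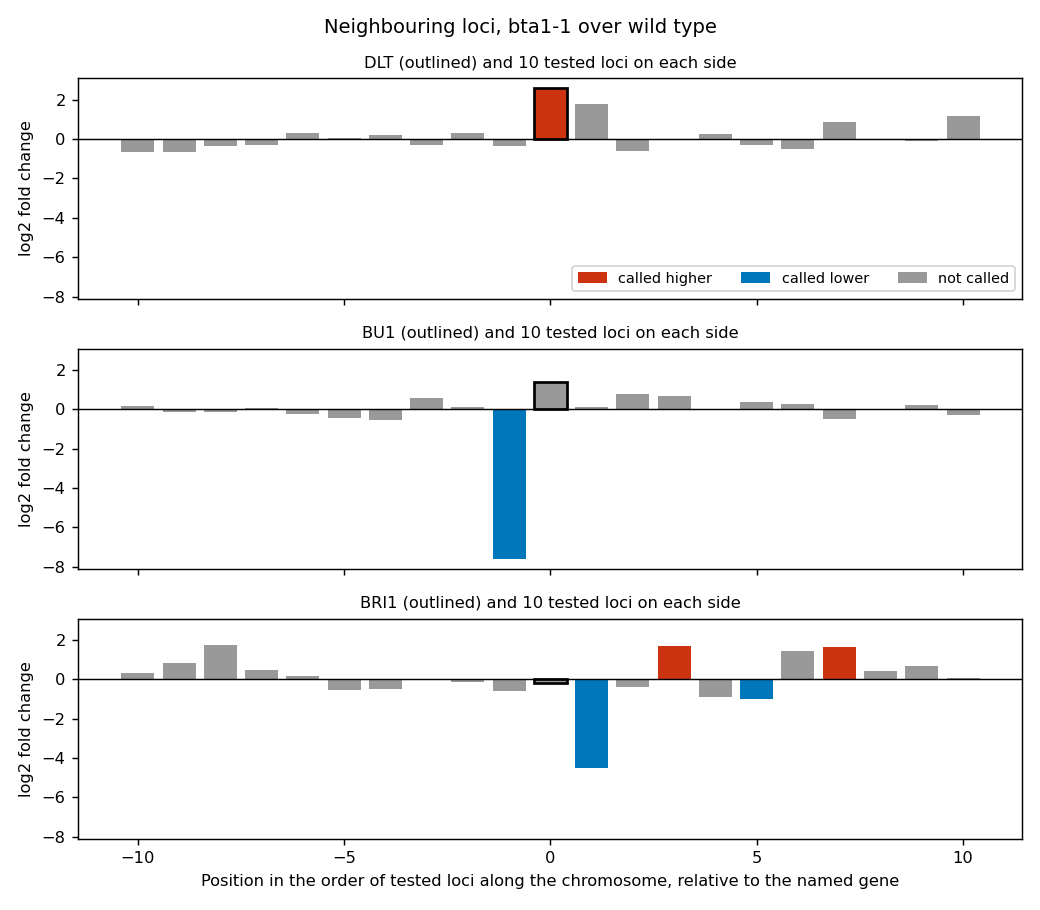
Bars are edgeR log2 fold changes of bta1-1 over wild type, coloured by edgeR's calls, for DLT, BU1 and BRI1 (outlined) and 10 tested loci on each side, in the order of locus numbers. DLT stands among 20 neighbours of which edgeR called 0 and DESeq2 called 2, BU1 lies next to a locus at -7.59, and 4 called loci lie among the neighbours of BRI1.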

How the data were processed

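Read counts per gene (whole numbers, not normalized) and FPKM values (normalized for gene length and library size) were deposited by the authors for 4 seedling libraries. Per the submitters' processing notes, which state neither roles nor order, the tools were HTSeq 0.6.1, TopHat2 2.0.12 and Bowtie2 2.2.3, on build IRGSP-1.0. Neither the annotation release nor the strand setting is given in the sources used here. Counts divided by FPKM gave a gene length whole within 0.01 base in 100% of 123342 values. The test on counts was that of edgeR 4.0.16 (R 4.3.3, TMM, low counts removed by filterByExpr at 10 reads and a total of 15, quasi-likelihood fit with robust set, two-sided, Benjamini-Hochberg over 24396 features). Standard errors are the log2 fold change over the square root of F, and 95% intervals use the moderated degrees of freedom, per gene and unadjusted. Alternatives used DESeq2 1.42.0 and limma 3.58.1. P-values set differences against the spread between these samples.

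The genes and lists were chosen with earlier results of these data known. Named genes were LAZY1, the 9 genes, called pathway genes, the smallest p per role of the list and the features nearest to DLT in pattern, of which the first 2 are printed. ILI1, IBH1, BC1, APG, DET2, CYP90A3, CYP90A4, RAVL1 and OFP8 were chosen after their values were seen. So were the relatives set beside the 9 genes, the cell division list and the 3 neighbouring loci named. Names were compared with a RefSeq gene table of another assembly (ASM3414082v1): 8 of the 9 and 23 of 36 other names matched by symbol, chromosome and gene order. DLT, BRD2, CYP90D3, BRL3, SERK2, GSK3 and ILI1 are among those not in that table and rest on the locus identifier. The name of 1 kinase locus was contradicted, so it is counted but not named.

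Equal replicate numbers were not shown to pair libraries. Replicates of a line differed beyond sampling noise, with a chi-square per degree of freedom of 33.1 in the wild type and 45.8 in bta1-1.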

Additional observations from a re-analysis of the deposited data

How the results depend on the processing

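The changes of the 9 genes, LAZY1 and 8 other named pathway genes, and the counts of calls over all features, the 9 genes and the pathway list, were recomputed under 14 alternatives, 13 of them planned and 1, a block with crossed replicate numbers, added after seeing the data. DLT stayed higher in all and was called in 13, with the exception of limma on log2(FPKM + 1) for all features above 0 (log2 1.95, adjusted p = 0.162). Among fits on all 4 libraries, BU1 became called with DESeq2 (1.35, adjusted p = 0.0255) and without the low-count filter (1.37). The crossed block (1.36) and log2(FPKM + 0.1) (1.36) also gave a call of BU1. When a library was left out, the log2 fold change of BU1 ranged from 1.08 to 1.62. Settings in which BU1 stayed uncalled included RLE size factors (1.35), the replicate block (1.34, adjusted p = 0.182 by edgeR) and log2(FPKM + 1) for all features above 0 (1.21, adjusted p = 0.236 by limma). BAK1 changed sign at values near 0 with RLE size factors (-0.00466), DESeq2 (-0.00471) and locus features only (-0.000527), and ranged from -0.15 to 0.18 without a library. Fits without a library left 1 library in a line, so their calls took the spread from the other line alone. D2 ranged from -0.23 to 0.76. The cause of these shifts was not tested. Windows of 5 and 20 neighbouring loci on each side gave 5.56% and 5.28% called, in place of 4.44% with 10.

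Of the 9 genes, 2 were higher with DESeq2, without the filter, with the crossed block and on log2(FPKM + 0.1), 0 on log2(FPKM + 1) for all features, and 1 to 2 without a library. Features called higher numbered 675, and 1027 with DESeq2, 1582 without the filter, 44 on log2(FPKM + 1) for all features and 401 (without wild type library 2) to 1202 (without bta1-1 library 1). Features called lower numbered 644, and 1322 without the filter, 125 on log2(FPKM + 1) for all features and 482 to 854 without a library. Other pathway genes called were 0 higher and 0 lower on log2(FPKM + 1) for all features, 0 lower on log2(FPKM + 1), and 0 to 3 higher and 0 to 1 lower without a library.

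With the replicate number as a block, 359 features were higher and 415 lower, and 1 pathway gene was higher and 0 lower, while DLT stayed called (adjusted p = 0.0296). Deviations of equal-numbered libraries correlated at -0.416 across genes, and with the numbers crossed the block gave 1972 higher and 1772 lower, and 6 and 2 pathway genes. The 2 libraries a line limit what could be called, above all for D2 at 8 to 12 reads.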
